A study of Mus musculus with 6 samples.

Results

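The genes described here are 3 FOXO transcription factors (Foxo1, Foxo3 and Foxo4) and 7 genes known as FOXO-linked effectors of muscle atrophy or of the stress response (Fbxo32, Trim63, Txnip, Sesn1, Sesn3, Cited2 and Bcl6). Their rows were taken by gene symbol, and all 10 were found among the 22706 genes of the deposited table. Their RNA was measured in muscle stem cells (MuSCs) sorted by flow cytometry directly from limb and trunk muscle, in 3 groups of 2 libraries. The control group came from wild type mice. The mdx group came from mice with a mutation of the dystrophin gene, a model of Duchenne muscular dystrophy. The group labelled Sirt6mKO/mdx came from mdx mice in which floxed exons of Sirt6, a chromatin deacetylase, were to be removed by a Cre recombinase under the Pax7 promoter that is always active, so that the deletion reaches the whole lineage of Pax7-expressing cells and not only the sorted MuSCs. The labels give the strain as C57BL/6 for all groups and give no age or sex. The study names C57BL/10ScSn-Dmdmdx/J as the source of the mdx mutation, describes its mice as kept on C57BL/6 with littermates as controls, and states that adult male mice were used for these MuSC data.

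The deposited values were normalized read counts, that is, read counts divided by a size factor per library. Libraries held roughly 4397632 to 9743941 reads and 18983 to 20614 detected genes. The summed value of 14 MuSC markers was 37321 to 39074 in control, 28668 to 35864 in mdx and 29052 to 31750 in Sirt6mKO/mdx. Control thus lay above both other groups. Pax7 itself lay between 2167 and 3236 in all libraries. By the criteria below, 2 of the 14 were called lower in mdx than in control, and 3 lower in Sirt6mKO/mdx than in control. None was called higher there, and 14.2% and 7.87% of all tested genes were called. The normalized read counts of Sirt6 lay between 30 and 41 in all 6 libraries (control 41 and 32, mdx 33 and 40, Sirt6mKO/mdx 37 and 30). These values overlapped, and a value summed over the gene cannot show the loss of a few exons, so the deletion was not checked by them. The study itself reports efficient deletion by PCR genotyping of MuSCs from mice with the floxed gene and the Cre. It also measured Sirt6 by RT-qPCR in MuSCs of control, mdx and Sirt6mKO/mdx mice. By RT-qPCR it reports higher Sirt6 RNA in mdx than in control MuSCs, where the values here overlapped. Xist, an RNA of the inactive X chromosome, had values of 16772 and 12950 in control and of 7 to 34 in the other 4 libraries, while the Y-linked gene Ddx3y had 3 and 8 in control and 1024 to 1767 in the others. The sex-linked RNA of both control libraries thus went against the stated use of males. The control and the mdx-derived libraries differed in it as well as in genotype, and these differences cannot be told apart. The 27 listed immediate early and dissociation response genes were all lower in mdx than in control and all higher in Sirt6mKO/mdx than in mdx by the criteria below, with summed values of 190731 to 209594 in control, 24720 to 27591 in mdx and 135616 to 145322 in Sirt6mKO/mdx.

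FOXO proteins are forkhead transcription factors that growth factor signalling through PI3K and AKT keeps out of the nucleus. When that signal falls, or under stress, they enter the nucleus and activate genes of protein breakdown, autophagy, cell cycle arrest and antioxidant defence. In muscle fibres they are known for driving the ubiquitin ligase genes of atrophy, and in MuSCs for their part in keeping the cells quiescent. RNA levels do not show where the proteins are in the cell.

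The promoters are shown first, with matches to a motif that FOXO factors can bind. RefSeq windows of 300 bases (250 before to 50 after the start of the transcript, GRCm38.p6) were at hand for 8 of the 10 genes, and Foxo4 and Fbxo32 had none. The FOXO core motif GTAAACA, searched on both strands, was found in 3 of the 10 windows of these genes, each of another gene, and in 3.65% of all 32851 windows. A second window of Sesn1 did not hold it. The windows are at chr4:134314870-134315169 (+ strand) for Trim63, chr3:96557707-96558006 (+ strand) for Txnip and chr10:41810324-41810623 (+ strand) for Sesn1. Capitals mark the motif, which reads TGTTTAC where it lies on the other strand.
Trim63: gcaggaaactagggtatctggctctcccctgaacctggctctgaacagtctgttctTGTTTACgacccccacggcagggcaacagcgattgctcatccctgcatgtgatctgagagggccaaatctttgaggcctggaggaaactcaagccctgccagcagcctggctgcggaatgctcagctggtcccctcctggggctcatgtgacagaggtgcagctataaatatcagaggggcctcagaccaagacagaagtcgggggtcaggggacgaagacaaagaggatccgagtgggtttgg
Txnip: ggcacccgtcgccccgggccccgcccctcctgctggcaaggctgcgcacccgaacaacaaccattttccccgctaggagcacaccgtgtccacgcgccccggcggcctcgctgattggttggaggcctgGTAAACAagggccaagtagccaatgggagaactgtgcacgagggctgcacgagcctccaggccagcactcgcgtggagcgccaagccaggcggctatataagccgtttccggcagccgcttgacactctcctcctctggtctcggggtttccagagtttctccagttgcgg
Sesn1: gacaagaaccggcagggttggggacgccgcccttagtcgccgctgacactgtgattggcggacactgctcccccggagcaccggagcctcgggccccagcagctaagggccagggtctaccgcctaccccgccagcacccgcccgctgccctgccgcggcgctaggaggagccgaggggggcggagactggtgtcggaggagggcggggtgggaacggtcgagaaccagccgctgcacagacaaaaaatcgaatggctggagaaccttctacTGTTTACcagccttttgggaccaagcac
The motif started 194 bases upstream of the start in Trim63 and 121 bases upstream in Txnip. In Sesn1 it lay 23 bases after the start. These matches are letters in a window and not measured binding sites.

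All 10 genes were detected in every library, and all had a mean above the minimum of 5 for a test. Per kb of exon, Txnip was the most abundant of them in each group, with a mean normalized read count per kb of 601 in control, 946 in mdx and 1400 in Sirt6mKO/mdx. In control, Foxo3 followed at 201 per kb, with Sesn1 at 158, Foxo1 at 129, Bcl6 at 128 and Foxo4 at 103. Foxo3 and Sesn1 overlapped there, as did Foxo1 and Bcl6. In mdx the order below Txnip was Sesn1 at 177 and Foxo4 at 163, which overlapped each other, and then Foxo1 at 61.7, Bcl6 at 52.2 and Foxo3 at 49.9, of which each overlapped its neighbour. For Sirt6mKO/mdx, Sesn1 stood at 166 per kb, and Foxo4 at 106 overlapped with Foxo3 at 105. At the low end, Trim63 had 19.0, 4.57 and 18.3 per kb in control, mdx and Sirt6mKO/mdx, and Sesn3 had 9.27, 10.1 and 6.91.

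**Figure D1:**
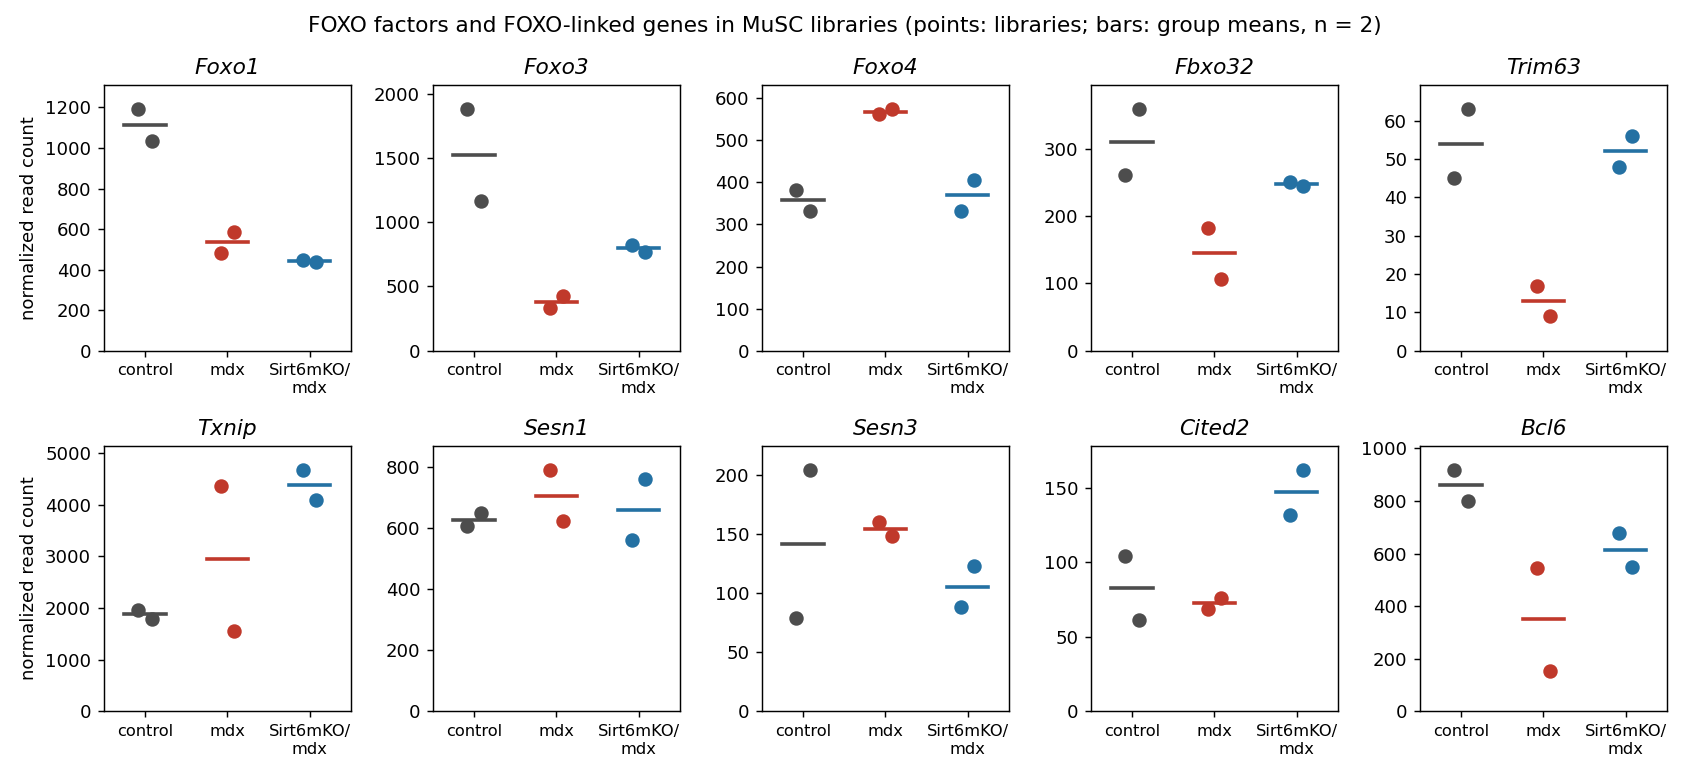
Normalized read count (y axis, linear, from 0, own scale per gene) of each of the 10 genes in the 3 groups (x axis); points are libraries and bars are group means. The mdx points lie below all others for Foxo3, Fbxo32, Trim63 and Bcl6 and above all others for Foxo4, and the points of the mdx group are far apart for Txnip and Bcl6.

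To learn whether FOXO factor RNA differed with dystrophy and with the Sirt6 deletion, the 3 factors were compared between the groups. Foxo3 and Foxo1 were lower in mdx than in control, Foxo3 was higher in Sirt6mKO/mdx than in mdx, and Foxo1 was lower in Sirt6mKO/mdx than in control. A gene is called higher or lower here when limma gave an adjusted p of at most 0.05 (Benjamini-Hochberg over 15915 tested genes) and a difference of at least 2-fold, on the scale log2(value + 1). In sorted cells as in any bulk sample, fewer cells of a type and less RNA per cell cannot be told apart.

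Foxo3 (ENSMUSG00000048756, chr10:42181841-42276755, - strand) encodes the FOXO factor best known for MuSC quiescence. Its normalized read counts were 1879 and 1164 for control, 329 and 426 for mdx and 825 and 765 for Sirt6mKO/mdx. The 3 groups did not overlap, with mdx lowest and Sirt6mKO/mdx in between. The log2 difference of mdx from control was -1.98 (SE 0.27, 95% interval -2.56 to -1.40, limma adjusted p = 0.0001824), and this call held when any library of the 2 groups was left out (-2.32 to -1.63). Sirt6mKO/mdx exceeded mdx by 1.08 on the log2 scale (SE 0.27, 95% interval 0.50 to 1.66, limma adjusted p = 0.02312). That call was lost when any of the 4 libraries was left out, with values of 0.90 without mdx 1, 1.27 without mdx 2, 1.03 without Sirt6mKO/mdx 1 and 1.14 without Sirt6mKO/mdx 2. It was also lost with libraries scaled to their totals (0.46) or upper quartiles (0.98). Against control, Sirt6mKO/mdx stood at -0.90 (SE 0.27, limma adjusted p = 0.05396), which was not called, but was called without control 2 (-1.24) and with scaling to the totals (-1.5), and stood at -0.55 without control 1.

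Foxo1 (ENSMUSG00000044167, chr3:52268337-52350109, + strand) encodes the FOXO factor known for both metabolic control and muscle atrophy. It had values of 1192 and 1037 for control, 481 and 588 for mdx and 449 and 439 for Sirt6mKO/mdx. Both control libraries were high, and the Sirt6mKO/mdx libraries were the lowest. The log2 difference was -1.06 for mdx against control (SE 0.24, 95% interval -1.57 to -0.55, limma adjusted p = 0.00749) and -1.32 for Sirt6mKO/mdx against control (SE 0.24, 95% interval -1.83 to -0.81, limma adjusted p = 0.003138). These comparisons share the control libraries. The first call was lost without control 1 (-0.96), without mdx 1 (-0.92) and with scaling to the upper quartile (-0.97), each of which is under 2-fold, and the call against control in Sirt6mKO/mdx was lost without Sirt6mKO/mdx 2 (-1.31). Between Sirt6mKO/mdx and mdx the difference of -0.26 (SE 0.24, 95% interval -0.77 to 0.25) did not pass (limma adjusted p = 0.5424). An antisense gene, Gm20402, shares 674 exonic bases with Foxo1, and the use of strand in counting was not stated.

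Foxo4 (ENSMUSG00000042903, chrX:101254528-101260873, + strand) encodes a further FOXO factor and lies on the X chromosome, of which Xist differed between control and the other groups as given above. Its values were 382 and 333 for control, 562 and 574 for mdx and 333 and 406 for Sirt6mKO/mdx. The mdx libraries were the highest and did not overlap either other group, while control and Sirt6mKO/mdx overlapped. No comparison was called: the log2 difference was 0.67 for mdx against control (SE 0.24, limma adjusted p = 0.07412) and -0.63 for Sirt6mKO/mdx against mdx (SE 0.24, limma adjusted p = 0.1246). With scaling to the library totals the latter became -1.25 and was called.

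Within each library the FOXO factors can be set against each other without regard to library scaling. Of the summed level per kb of the 3 factors, Foxo3 made up 50.1% and 41.7% for control, 16.7% and 19.5% for mdx and 42.5% and 37.7% for Sirt6mKO/mdx. Foxo4 made up 22.1% and 25.9% for control, 62.0% and 57.0% for mdx and 37.3% and 43.4% for Sirt6mKO/mdx. Foxo1 ranged from 18.9% to 32.4%, and was highest in the control libraries. The mdx libraries thus had Foxo4 as their main FOXO RNA per kb, and the control libraries had Foxo3. The ratio of the deposited values of Foxo3 to Foxo1 was 1.58 and 1.12 for control, 0.684 and 0.724 for mdx and 1.84 and 1.74 for Sirt6mKO/mdx, so that both Sirt6mKO/mdx libraries lay above both control libraries. The ratio of Foxo3 to Foxo4 was 4.92 and 3.5, then 0.585 and 0.742, then 2.48 and 1.88 in the same order of groups. These shares and ratios were added after the data were seen and were not tested. The immediate early sums given above were also lowest in mdx and intermediate in Sirt6mKO/mdx, as Foxo3 was. Their part in the result was not tested.

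**Figure D2:**
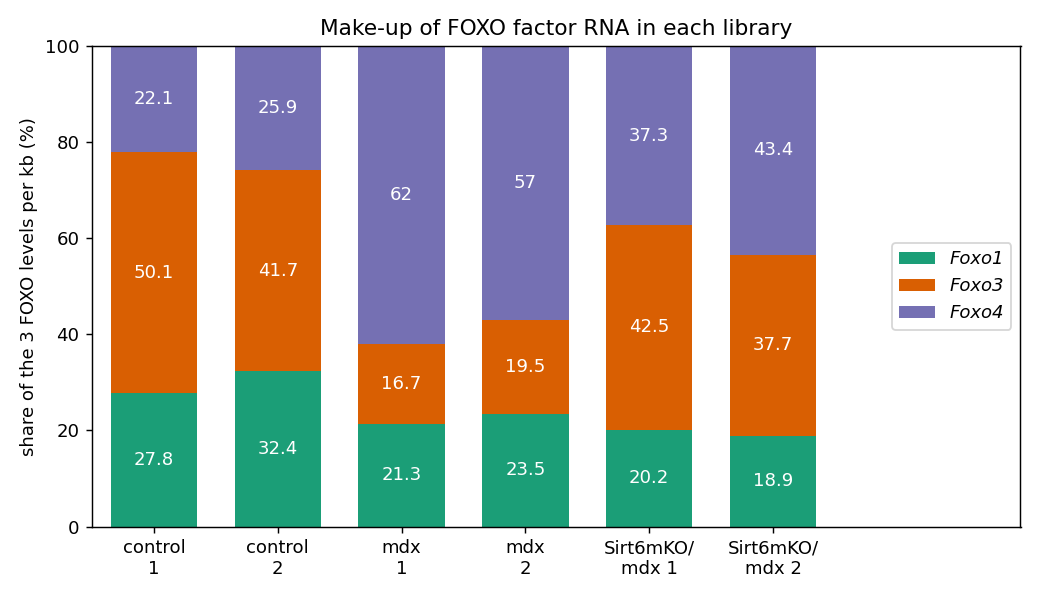
Share (y axis, percent) of Foxo1, Foxo3 and Foxo4 in their summed normalized read count per kb of exon, with 1 stacked bar per library (x axis). Foxo4 takes 57.0% and 62.0% in the mdx libraries against 22.1% to 43.4% in the other 4.

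The muscle ubiquitin ligases Fbxo32 (atrogin-1) and Trim63 (MuRF1), which mark proteins of the muscle fibre for breakdown, were both lower in mdx than in control. Trim63 was also higher in Sirt6mKO/mdx than in mdx. Trim63 (ENSMUSG00000028834, chr4:134315120-134329629, + strand) had values of 45 and 63 for control, 17 and 9 for mdx and 48 and 56 for Sirt6mKO/mdx, which stand for about 30, 82, 26, 12, 31 and 30 reads. The mdx libraries lay below all others, and the other 2 groups overlapped. The log2 difference was -2.02 for mdx against control (SE 0.54, 95% interval -3.17 to -0.87, limma adjusted p = 0.01938) and 1.98 for Sirt6mKO/mdx against mdx (SE 0.54, 95% interval 0.83 to 3.13, limma adjusted p = 0.03387). Both comparisons use the same mdx libraries. The first call was lost without control 2 (-1.78) or mdx 2 (-1.59). The second was lost without any 1 of the 4 libraries (1.55 to 2.40), namely mdx 1 (2.40), mdx 2 (1.55), Sirt6mKO/mdx 1 (2.09) and Sirt6mKO/mdx 2 (1.87), and with scaling to the totals (1.38).

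Fbxo32 (ENSMUSG00000022358, chr15:58175879-58214892, - strand) had values of 261 and 359 for control, 183 and 106 for mdx and 251 and 244 for Sirt6mKO/mdx. Again the mdx libraries were the lowest, and Sirt6mKO/mdx lay just below control. The log2 difference of -1.13 for mdx against control was called (SE 0.31, 95% interval -1.79 to -0.47, limma adjusted p = 0.02132), though not without control 2 (-0.90) or mdx 2 (-0.74). The difference of 0.82 for Sirt6mKO/mdx against mdx did not pass (SE 0.31, 95% interval 0.17 to 1.48, limma adjusted p = 0.1093) and was 0.20 with scaling to the totals. Fbxo32 exceeded Trim63 5.80-fold and 5.70-fold for control, 10.8-fold and 11.8-fold for mdx and 5.23-fold and 4.36-fold for Sirt6mKO/mdx in deposited values, which are not per kb. Within each library Trim63 was thus lower relative to Fbxo32 in mdx than in either other group. The antisense gene Gm15943 shares 186 exonic bases with Fbxo32 and had values of 0 to 4.

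Both ligase genes are expressed by muscle fibres, and markers of fibres moved in the same direction. The summed value of 18 myofibre markers was 24717 and 48009 for control, 18492 and 13777 for mdx and 41371 and 29085 for Sirt6mKO/mdx, and none of these markers was at 0 in all libraries. In mdx against control 9 of the 18 were called lower and the median log2 difference was -1.46, and in Sirt6mKO/mdx against mdx 9 were called higher with a median of 1.25. Set against this sum, Fbxo32 amounted to 10.6 and 7.48 per 1000 for control, 9.90 and 7.69 for mdx and 6.07 and 8.39 for Sirt6mKO/mdx. All groups overlapped in this ratio. Trim63 amounted to 1.82 and 1.31 per 1000 for control, 0.919 and 0.653 for mdx and 1.16 and 1.93 for Sirt6mKO/mdx, with mdx below both other groups. Titin (Ttn) made up 53.0% to 79.1% of the sum. Without it, Trim63 amounted to 3.88 and 3.87 per 1000 for control, 2.08 and 3.12 for mdx and 2.71 and 6.13 for Sirt6mKO/mdx, so that mdx stayed below control but overlapped Sirt6mKO/mdx. Fbxo32 overlapped without Ttn as well, at 22.5 and 22.1, then 22.3 and 36.7, then 14.1 and 26.7 per 1000. These ratios were added after the data were seen, and the part of fibre RNA in the ligase result was not tested further.

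**Figure D3:**
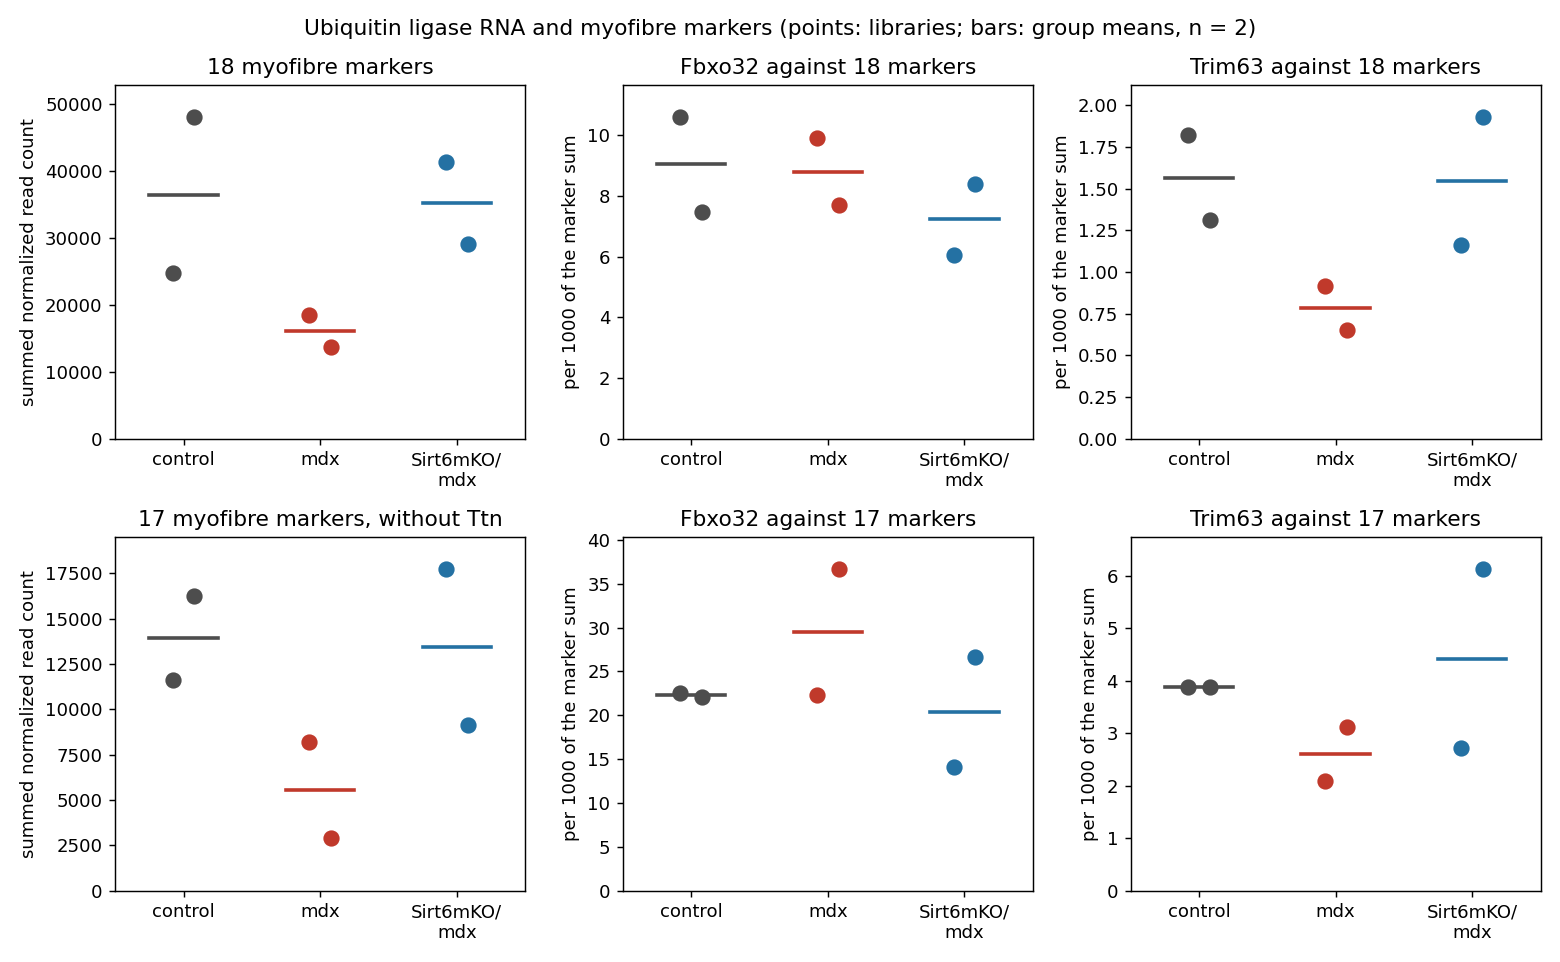
Left, the summed normalized read count of myofibre markers; middle and right, Fbxo32 and Trim63 per 1000 of that sum (y axes, linear, from 0), in the 3 groups (x axis), with all 18 markers (top) and with the 17 left without Ttn (bottom); points are libraries and bars are group means. The Fbxo32 points overlap between groups in both rows, whereas mdx is below both groups for Trim63 in the top row only.

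The stress and growth targets Txnip, Sesn1 and Sesn3 did not pass the test in any comparison of the fit reported. Txnip (ENSMUSG00000038393, chr3:96557957-96561883, + strand) encodes a thioredoxin-binding protein that limits glucose uptake. Its values were 1967 and 1785 for control, 4361 and 1548 for mdx and 4672 and 4081 for Sirt6mKO/mdx. The mdx libraries lay on either side of the control libraries, and both Sirt6mKO/mdx libraries were above both control libraries. The log2 difference of Sirt6mKO/mdx from control was 1.22 (SE 0.39, 95% interval 0.40 to 2.04, limma adjusted p = 0.06324). It was called with only the 4 libraries compared (limma adjusted p = 0.02531) and with the replicate number as a block (limma adjusted p = 0.01984), and was 0.62 with scaling to the totals. That of mdx from control was 0.47 (SE 0.39, limma adjusted p = 0.4404) and depended on 1 library, being -0.28 without mdx 1 and 1.22 without mdx 2, when it was called. Against mdx, Sirt6mKO/mdx stood at 0.75 (limma adjusted p = 0.2435), which became 1.5 and was called without mdx 1 and was 0.00 without mdx 2. The antisense gene Gm15441 shares 606 exonic bases with Txnip and had values of 22 and 41 in Sirt6mKO/mdx and 0 to 8 elsewhere.

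Sestrins are stress proteins that hold back mTORC1. Sesn1 (ENSMUSG00000038332, chr10:41810574-41908424, + strand) had values of 606 and 650 for control, 791 and 622 for mdx and 560 and 760 for Sirt6mKO/mdx. All groups overlapped, and the log2 differences lay between -0.10 and 0.16, the 95% interval of mdx against control running from -0.38 to 0.70. Sesn3 (ENSMUSG00000032009, chr9:14276301-14326138, + strand) had values of 79 and 204 for control, 160 and 148 for mdx and 88 and 123 for Sirt6mKO/mdx. Its control libraries were far apart, and the log2 difference of Sirt6mKO/mdx from mdx was -0.56 (SE 0.40, 95% interval -1.41 to 0.29, limma adjusted p = 0.4147). These intervals leave room for differences of over 1.5-fold in either gene.

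Of the transcriptional regulators Bcl6 and Cited2, Bcl6 was called in mdx against control and Cited2 in no comparison, and the difference between the genes was not tested. Bcl6 (ENSMUSG00000022508, chr16:23965052-23988852, - strand) is a repressor known from germinal centre B cells and is also a FOXO target. It had values of 918 and 801 for control, 546 and 154 for mdx and 678 and 549 for Sirt6mKO/mdx. The 2 mdx libraries differed over 3-fold, and both lay below every library of the other groups. Bcl6 was lower in mdx than in control, with a log2 difference of -1.56 (SE 0.41, 95% interval -2.43 to -0.69, limma adjusted p = 0.01774). This call was lost without mdx 2 (-0.65), control 1 (-1.46) or control 2 (-1.66), and stood at -2.47 without mdx 1. The difference of 1.07 between Sirt6mKO/mdx and mdx was not called (SE 0.41, limma adjusted p = 0.1178) and was 1.98 and called without mdx 1 but 0.16 without mdx 2. Bcl6 is also expressed by leukocytes, which the sort was designed to remove by depletion of CD45+ cells. Their markers summed to 147 to 178 in control, 99 to 133 in mdx and 235 to 248 in Sirt6mKO/mdx, with Ptprc at 0 in both control libraries and at 3 to 19 elsewhere. The part of leukocyte RNA in the result was not tested.

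Cited2 (ENSMUSG00000039910, chr10:17723228-17725673, + strand) encodes a CBP/p300-binding co-regulator. Its values were 104 and 61 for control, 69 and 76 for mdx and 132 and 162 for Sirt6mKO/mdx, with Sirt6mKO/mdx above all others and control and mdx overlapping. The log2 difference was 1.0 for Sirt6mKO/mdx against mdx (SE 0.37, 95% interval 0.22 to 1.78, limma adjusted p = 0.1014) and 0.87 against control (95% interval 0.09 to 1.65, limma adjusted p = 0.1609), neither of which was called.

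Counted over the 10 genes, 5 were called in mdx against control, all of them lower (Foxo1, Foxo3, Fbxo32, Trim63 and Bcl6), and 5 were not, whereas 14.2% of all tested genes were called there, 6.89% higher and 7.34% lower. The median log2 difference of the 10 was -0.60, beside 0.00 over all tested genes. In Sirt6mKO/mdx against mdx 2 were called, both higher (Foxo3 and Trim63), and 8 were not, beside 8.17% called among all genes, 5.62% higher and 2.54% lower. Their median was 0.78, beside 0.02. Between Sirt6mKO/mdx and control 1 was called, Foxo1, which was lower, beside 7.87% of all genes, 5.19% higher and 2.68% lower. At an unadjusted p under 0.05 in limma, 6, 6 and 4 of the 10 passed in these comparisons, beside 31%, 25.2% and 24.1% of all genes. With one prior variance for all genes in place of one that follows the mean, all member calls were lost in the 3 comparisons. With no minimum mean, those of Fbxo32, Trim63 and Bcl6 in mdx against control and of Foxo3 and Trim63 in Sirt6mKO/mdx against mdx were lost, and with a robust prior that of Bcl6. The comparisons share libraries and are no independent evidence of each other. The immediate early sums were also lower in mdx than in both other groups, as the values of Foxo3, Fbxo32, Trim63 and Bcl6 were. So were the sums of 10 endothelial markers (843 to 951 in control, 441 to 458 in mdx and 654 to 668 in Sirt6mKO/mdx, with 2 of 8 tested called lower in mdx against control), whereas those of 12 fibro-adipogenic markers were highest in mdx (42139 to 51085, against 29556 to 36295 in control and 28919 to 37655 in Sirt6mKO/mdx, with 3 called higher in mdx against control). The sort was designed to remove CD31+ and Sca1+ cells, which include endothelial and fibro-adipogenic cells. The study reanalysed its sorted cells and reports that they were not fully pure. Its methods name several gates for MuSCs, by surface markers or reporter fluorescence, without saying which served these libraries. Myofibre marker sums, given above, were lowest in mdx as well, and per 1000 of the 18-marker sum Foxo3 stood at 76.0 and 24.2 for control, 17.8 and 30.9 for mdx and 19.9 and 26.3 for Sirt6mKO/mdx, and Bcl6 at 37.1 and 16.7, then 29.5 and 11.2, then 16.4 and 18.9, so that the groups overlapped for both genes. Foxo1 stood at 48.2 and 21.6, then 26.0 and 42.7, then 10.9 and 15.1, so that control and mdx overlapped and Sirt6mKO/mdx lay below both. Foxo4 stood at 15.5 and 6.94, then 30.4 and 41.7, then 8.05 and 14.0, so that mdx lay above both other groups. This ratio was also added after the data were seen. The part of these RNAs in the members' results was not tested. The groups did not overlap for 6 of the 10 genes in mdx against control, for 8 in Sirt6mKO/mdx against mdx and for 6 in Sirt6mKO/mdx against control, but this was also true of 57%, 56% and 51.6% of all tested genes, so that a lack of overlap alone says little here. The totals of the deposited values were 9626453 and 8883310 in Sirt6mKO/mdx and 5564142 to 6642949 in the other libraries. The 10 most abundant genes of a library held 32.6% and 30.0% of these totals in Sirt6mKO/mdx and 11.7% to 22.9% elsewhere. Upper quartiles lay between 175 and 201 in all libraries. With scaling to the library totals the median of all genes in Sirt6mKO/mdx against mdx moved to -0.59. The calls over all genes there moved from 895 higher and 405 lower to 479 higher and 2937 lower. With scaling to the upper quartile they were 720 higher and 623 lower. Against control, scaling to the totals moved them from 826 higher and 427 lower to 455 higher and 2693 lower. Under that scaling the members not yet given stood at -0.89 (Foxo1), 0.12 (Txnip), -0.73 (Sesn1), -1.18 (Sesn3), 0.38 (Cited2) and 0.44 (Bcl6) in Sirt6mKO/mdx against mdx, none of them called by limma, and Bcl6 was called in Sirt6mKO/mdx against control (-1.09).

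**Figure D4:**
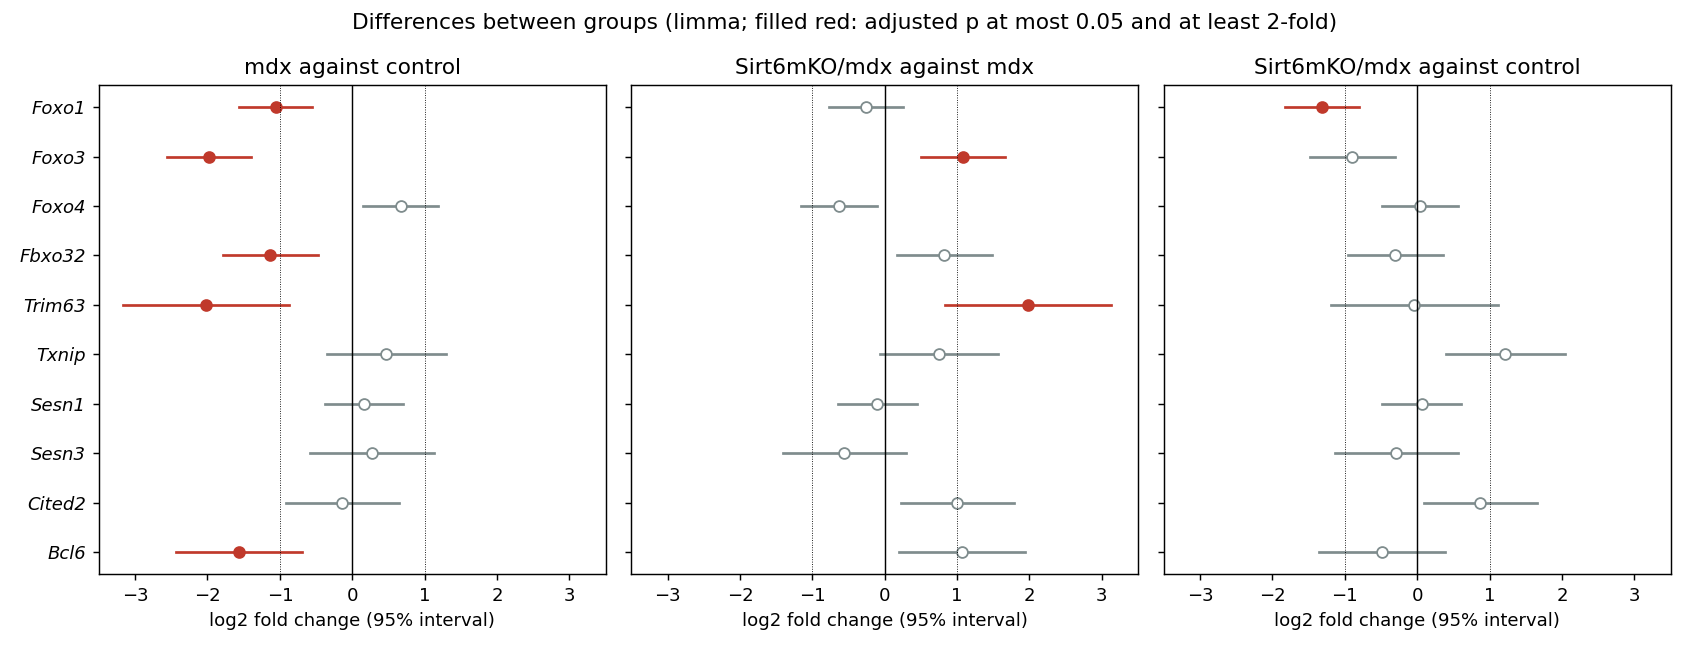
Log2 fold change (x axis, log2(value + 1) scale) of the 10 genes (rows) in each comparison (panels), with 95% intervals from limma; filled red points are called, and dotted lines mark 2-fold. The 5 called genes of the left panel lie between -2.02 and -1.06, and the 2 of the middle panel are Foxo3 at 1.08 and Trim63 at 1.98.

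The genes whose pattern over the 6 libraries was most like that of a called member were found by Pearson's r on log2(value + 1), as a description over libraries that fall into 3 groups. For Foxo3 they included Gm13833 (r = 0.993) and Slc39a14 (0.993), among 610 of 9665 genes with r over 0.9. For Foxo1 they were Gm20645 (0.998), Nat10 (0.991) and Farp2 (0.989), among 279. Trim63 had Rplp1 (0.990), 1810011O10Rik (0.988) and Azi2 (0.985) closest to it, Fbxo32 had Icosl (0.987), Hmox1 (0.987) and Ankrd23 (0.980), and Bcl6 had Mgll (0.988), Htra3 (0.985) and Gpx3 (0.983). Among the members themselves r was 0.95 for Fbxo32 with Trim63, 0.92 for Fbxo32 with Bcl6 and -0.92 for Foxo4 with Trim63.

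The genes around the FOXO factors were described from lists of the pathway, beside the 14.2% of all tested genes called in mdx against control, 8.17% in Sirt6mKO/mdx against mdx and 7.87% in Sirt6mKO/mdx against control. Of 22 genes of the insulin receptor, PI3K, AKT and SGK branch that acts upstream of FOXO, 3 were called lower and 2 higher in mdx against control, and 2 were called higher in Sirt6mKO/mdx against mdx. Irs2, an insulin receptor substrate, had values of 2131 and 1480 for control, 191 and 230 for mdx and 980 and 918 for Sirt6mKO/mdx. Sgk1, a kinase that also phosphorylates FOXO proteins, had 3585 and 3157, then 682 and 603, then 2472 and 3459. Both were lowest in mdx without overlap, as Foxo3 was, but 57% of all tested genes also lacked overlap in mdx against control. Immediate early genes were likewise lower in mdx than in control and higher in Sirt6mKO/mdx than in mdx (medians -3.23 and 2.77). Their part in the result was not tested. The log2 differences were -3.08 and 2.17 for Irs2 (limma adjusted p = 1.887e-06 and 9.53e-05) and -2.39 and 2.19 for Sgk1 (limma adjusted p = 3.023e-05 and 0.0001469), in mdx against control and in Sirt6mKO/mdx against mdx. Pik3r1, the regulatory subunit of PI3K, was lower in mdx (-1.39) and in Sirt6mKO/mdx (-1.20) than in control, with values of 1334 and 1488, 528 and 544, and 667 and 560. It was thus low in the groups in which Foxo1 was low, and the second call was lost without Sirt6mKO/mdx 2 (-1.33 to -1.08 over the libraries left out). Inpp4b, a phosphatase gene of the branch, was higher in mdx than in control (1.73), a call lost without control 1, mdx 1 or mdx 2 (1.38 to 2.08).

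Of 41 other known FOXO targets, 10 were called lower and 2 higher in mdx against control (median -0.46), and 11 higher and 1 lower in Sirt6mKO/mdx against mdx (median 0.65). Trib1, a pseudokinase gene, had values of 3459 and 2953 for control, 189 and 128 for mdx and 1333 and 1621 for Sirt6mKO/mdx, with log2 differences of -4.35 and 3.23 (limma adjusted p = 8.678e-08 and 3.806e-06). Pdk4, which spares glucose by blocking pyruvate dehydrogenase, had 787 and 790, then 171 and 100, then 432 and 506, with -2.58 and 1.83, the second call being lost without Sirt6mKO/mdx 2 (1.45 to 2.21 over the libraries left out). Gadd45a, a DNA damage response gene, had 376 and 318, then 151 and 98, then 525 and 704, and was higher in Sirt6mKO/mdx than in mdx by 2.31. All 3 genes were lowest in both mdx libraries. The cell cycle inhibitor Cdkn1a was lower in mdx (-1.89) and higher in Sirt6mKO/mdx than in mdx (1.16), the latter call being lost without any 1 of the 4 libraries (1.06 to 1.27) and with scaling to the totals (0.54), and Ccng2, a cyclin of quiescent cells, was higher in Sirt6mKO/mdx than in mdx (1.34), a call lost without mdx 2, Sirt6mKO/mdx 1 or Sirt6mKO/mdx 2 (1.09 to 1.59) and with scaling to the totals (0.71). Ccnd1, which FOXO factors repress and which drives the cell cycle, was lower in Sirt6mKO/mdx than in mdx (-2.22), with values of 207 and 251 against 930 and 1217, a call lost without mdx 2 (-2.41 to -2.02 over the libraries left out). Plk2, a polo-like kinase gene, was lower in mdx than in control (-2.05) and higher in Sirt6mKO/mdx than in mdx (2.10). Against control, 1 of the 41 was called higher in Sirt6mKO/mdx (Bnip3, 1.64) and 3 lower (Ccnd1 at -1.26, Notch3 at -1.25 and Trib1 at -1.12), the calls of Bnip3 (1.42 to 1.87), Notch3 (-1.42 to -1.08) and Trib1 (-1.26 to -0.98) being lost without any 1 of the 4 libraries, that of Bnip3 also with scaling to the totals, and that of Ccnd1 without control 2, Sirt6mKO/mdx 1 or Sirt6mKO/mdx 2 (-1.90 to -0.62). The immediate early genes were lower in mdx than in control and higher in Sirt6mKO/mdx than in mdx, the directions of Trib1, Pdk4, Plk2 and Cdkn1a but not of Ccnd1, Notch3 or Bnip3, and their part in the result was not tested.

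Of 10 tested paralogs of the members, 3 were called lower and 1 higher in mdx against control, and 3 higher in Sirt6mKO/mdx against mdx. The paralog called higher in mdx against control is not among those named here. Among the paralogs, Sesn2 followed a course unlike that of Sesn1 and Sesn3. It had values of 133 and 90 for control, 14 and 16 for mdx and 59 and 73 for Sirt6mKO/mdx, and was lower in mdx than in control (-2.79, limma adjusted p = 0.0007131) and higher in Sirt6mKO/mdx than in mdx by 2.06 (limma adjusted p = 0.01129), the latter call being lost without any 1 of the 4 libraries (1.91 to 2.21). Arrdc2 and Arrdc3, arrestin-domain relatives of Txnip, were lower in mdx (-1.85 and -1.13) and higher in Sirt6mKO/mdx than in mdx (2.30 and 1.03), where Txnip was not called. These calls were lost without control 1, mdx 1 or mdx 2 for both genes in the first comparison (-2.61 to -1.09 and -1.57 to -0.68), and in the second without mdx 2 or Sirt6mKO/mdx 2 for Arrdc2 (2.16 to 2.44) and without any 1 of the 4 libraries for Arrdc3 (0.88 to 1.18), whose call was also lost with scaling to the upper quartile (0.92) or the totals (0.40). Arrdc4 (0.99 in mdx against control, limma adjusted p = 0.1175) and Foxo6, with values of 10 to 29, were not called. Immediate early genes moved in the directions of Sesn2, Arrdc2 and Arrdc3 (medians -3.23 and 2.77), and their part in the result was not tested.

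Of 24 tested atrophy genes outside the members, 6 were called lower and 2 higher in mdx against control (median -0.45), and 7 higher and 1 lower in Sirt6mKO/mdx against mdx (median 0.52). Myofibre markers (medians -1.46 and 1.25) and immediate early genes (medians -3.23 and 2.77) moved in these directions too, and their part in the result was not tested. The ubiquitin gene Ubb was lower in mdx than in control (-2.89), with values of 3156 and 5134 for control, 717 and 412 for mdx and 994 and 976 for Sirt6mKO/mdx. The metallothionein genes Mt1 and Mt2 were higher in Sirt6mKO/mdx than in mdx, by 2.04 and 2.37, the call of Mt2 being lost without mdx 2 or Sirt6mKO/mdx 2 (2.05 to 2.69), and Mt2 was lower in mdx than in control (-1.75), a call lost without control 1, mdx 1 or mdx 2 (-2.67 to -0.82). Myog, a factor of myogenic differentiation, was higher in mdx than in control (2.31), opposite to Fbxo32 and Trim63. Mstn, the FOXO-regulated growth inhibitor myostatin, had values of 0 to 8 and was too low to test. Compared with control, Sirt6mKO/mdx had higher Myog (1.96) and lower Ubb and Vcp, an ATPase of protein breakdown (-2.03 and -1.51). Without Sirt6mKO/mdx 2 the calls of Myog, Ubb and Vcp were lost, as they were for Myog without control 1 and for Vcp without control 2 (1.21 to 2.72, -2.38 to -1.68 and -1.92 to -1.1 over the libraries left out). Zfand5, a ubiquitin-binding gene of atrophy, was higher in Sirt6mKO/mdx than in mdx (1.28), a call lost without any 1 of the 4 libraries (1.05 to 1.51) and with scaling to the totals (0.66).

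Of 30 genes that modify or bind FOXO proteins, 1 was called higher and 1 lower in mdx against control and 1 higher and 4 lower in Sirt6mKO/mdx against mdx. Sirt1, which deacetylates FOXO proteins, had values of 604 and 299 for control, 225 and 201 for mdx and 458 and 545 for Sirt6mKO/mdx, and was higher in Sirt6mKO/mdx than in mdx by 1.23 (limma adjusted p = 0.0227), a call lost without any 1 of the 4 libraries (1.1 to 1.35) and with scaling to the totals (0.60). Skp2, a ligase that degrades FOXO1, was lower there (-1.33), with values of 240 and 258 in mdx and 88 and 110 in Sirt6mKO/mdx, a call likewise lost without any 1 of the 4 (-1.49 to -1.17). The 14-3-3 gene Ywhab, whose protein holds FOXO factors in the cytoplasm, and the export receptor gene Xpo1 were also lower there (-1.5 and -1.12), calls again lost without any 1 of the 4 (-1.68 to -1.31 and -1.32 to -0.92). A further 14-3-3 gene, Ywhae, was higher in mdx than in control (1.02), a call lost without control 1, mdx 1 or mdx 2 (0.82 to 1.22), and was lower in Sirt6mKO/mdx than in mdx (-1.01, limma adjusted p = 0.04087), a call lost without any 1 of the 4 libraries (-1.33 to -0.70). Prkaa2, an AMPK subunit gene, was lower in mdx than in control (-1.74), a call lost without mdx 2 (-1.86 to -1.61 over the libraries left out). The only gene of the 30 called between Sirt6mKO/mdx and control was Ywhag (-1.1), a call lost without control 2, Sirt6mKO/mdx 1 or Sirt6mKO/mdx 2 (-1.29 to -0.91).

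**Figure D5:**
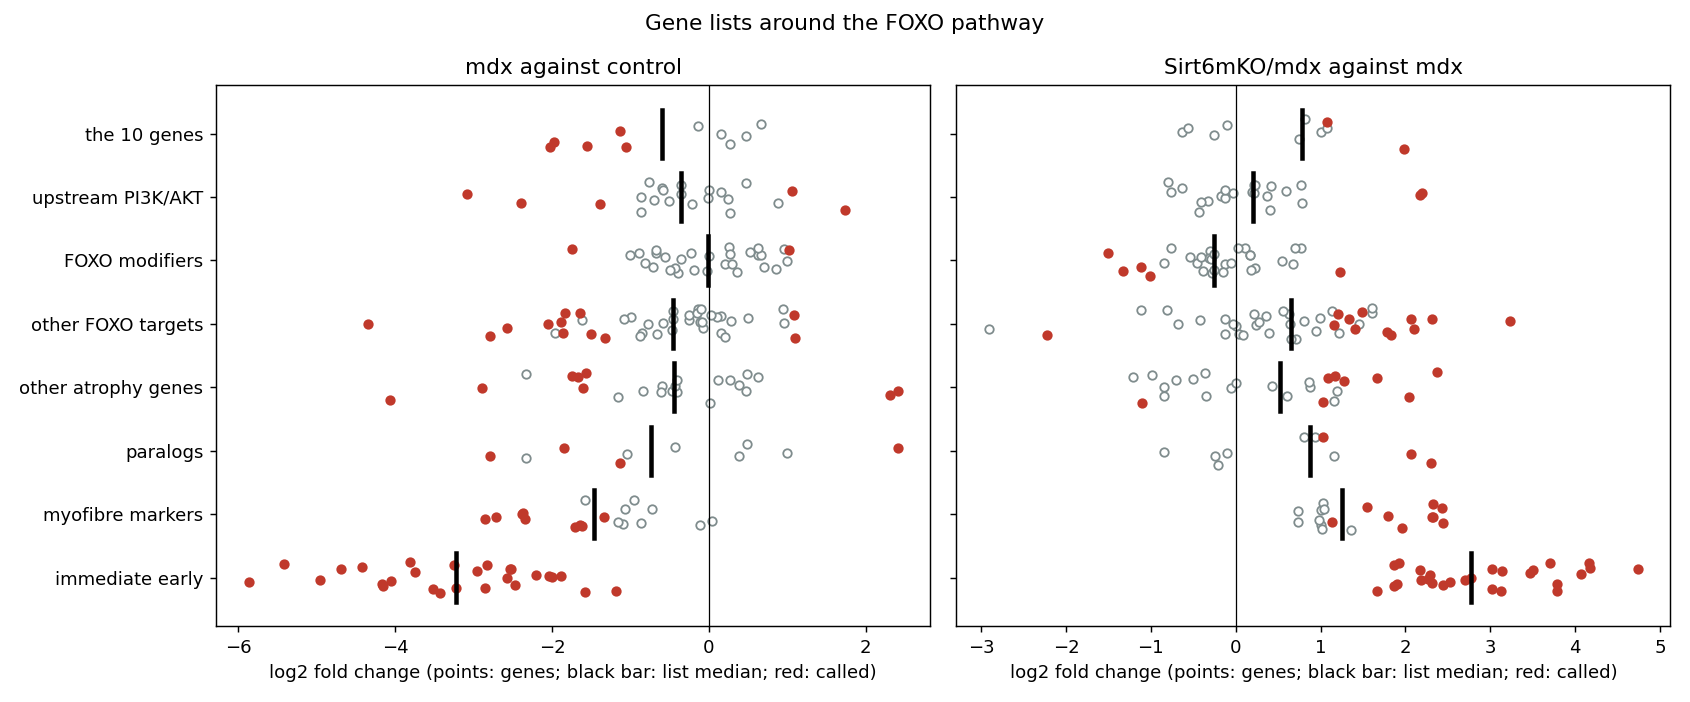
Log2 fold change (x axis) of each gene in the pathway lists (rows) for mdx against control (left) and Sirt6mKO/mdx against mdx (right); points are genes, red points are called, and black bars are list medians. The median of other FOXO targets is -0.46 on the left and 0.65 on the right, beside -1.46 and 1.25 for myofibre markers and -3.23 and 2.77 for immediate early genes.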

How the data were processed

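MuSC libraries of 3 groups were compared. The methods call the 2 libraries of a group biological replicates, and the labels do not say which animals they came from. Per the methods, the authors used Reaper for trimming and STAR for alignment (2.4.2a per the submitters' processing notes) to GRCm38, and counted reads per gene by featureCounts 1.4.5-p1, leaving out reads on several genes or places. The deposited values are a score: whole-number normalized read counts, which the authors made by dividing counts by a size factor per library and rounding. Raw counts were not used here, so the count test of the authors was replaced by limma 3.58.1 in R 4.3.3 on log2(value + 1), with all 6 libraries, a prior variance following the mean and no block. Genes reaching a mean of 5 were tested (15915), two-sided with Benjamini-Hochberg adjustment over all of them. The scale understates changes of low genes. The size factors were recovered from the pattern of whole numbers and tested on simulated data, as was the limma step. Approximate depth was value times size factor. All 10 gene positions overlapped GENCODE release 21 of GRCm38, from which exonic lengths were taken.

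Every member was reported. Of each pathway list, the 4 called genes of largest change per comparison (mean 50 or more) were named, and Foxo6, Sesn2, Arrdc4, Sirt1, Sirt6, Cdkn1a, Ccng2, Pdk4 and Mstn in any case. Likeness took the 3 genes with the highest r. Some genes that these rules name are not reported here. The members and lists were chosen with earlier results of these data known. Alternatives were other scalings, pseudocounts, minimum means, prior variances and subsets of libraries.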

Additional observations from a re-analysis of the deposited data

How the results depend on the processing

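The number of the 10 genes called in mdx against control, 5 in the fit reported, was 2 with no minimum mean (4.4% of all genes called) and 0 with one prior variance for all genes in limma (5 at an unadjusted p under 0.05, and 3.4% of all genes called), and 2 to 4 when a library was left out (5.74% to 14.5% of all genes called). In Sirt6mKO/mdx against mdx it was 2, and 1 with scaling to the upper quartile (Trim63, with 8.46% of all genes called), to the totals (Foxo4, lower, with 21.4% of all genes called) or with a minimum mean of 50, at which Trim63 was not tested (12.9%). It was 0 with no minimum mean (5 at an unadjusted p under 0.05 in limma, and 0.747% of all genes called), 0 with one prior variance (3 at an unadjusted p under 0.05, and 0% of all genes called) and 0 to 2 without a library, the 2 being Txnip and Bcl6, while 1.59% to 2.86% of all genes were called against 8.17% in the fit reported. In Sirt6mKO/mdx against control it was 1, and 3 with scaling to the totals (19.7% of all genes called), 2 with only the 4 libraries compared (5.14%), 0 with one prior variance (2 at an unadjusted p under 0.05, and 0.547% of all genes called) and 0 to 2 without a library (1.33% to 8.97%). With the replicate number as a block, it was 5, 3 and 2 (2 in Sirt6mKO/mdx against control), adding Bcl6 and Txnip, with 15.2%, 9.49% and 8.82% of all genes called. Deviations of same-numbered libraries correlated at -0.13, 0.12 and 0.01. These values show no strong shared shift by number, but cannot settle whether libraries were paired. The cause of these shifts was not tested.

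With scaling to the totals, Sirt6mKO/mdx against control changed sign for Foxo4 (-0.56), Sesn1 (-0.55), Foxo6 (-0.27) and Sirt1 (-0.37). Leaving out libraries changed the sign of some small differences. In mdx against control these ranged from -0.28 to 1.22 for Txnip, -0.01 to 0.33 for Sesn1, -0.40 to 0.95 for Sesn3, -0.52 to 0.24 for Cited2 and -0.33 to 1.11 for Foxo6. In Sirt6mKO/mdx against mdx they ranged from -0.32 to 0.12 for Sesn1, -0.82 to 0.63 for Foxo6, -0.74 to 0.32 for Arrdc4 and -0.27 to 0.03 for Sirt6. In Sirt6mKO/mdx against control they ranged from -0.10 to 0.19 for Foxo4, -0.28 to 0.20 for Trim63, -0.16 to 0.28 for Sesn1, -0.96 to 0.39 for Sesn3, -0.27 to 0.74 for Sirt1 and -0.29 to 0.06 for Sirt6. Of all recomputed differences of named genes, 1066 kept direction and side of the threshold, 215 lost the call, 15 gained it and 25 changed sign. A group left with 1 library was assumed to vary like the others.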
